A study of Homo sapiens with 6 samples.

Results

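Iron handling in U251 glioma cells was described through 10 genes of iron uptake, storage, export and sensing, chosen by name from the 60612 genes of the deposited expression table. The genes for uptake were TFRC, STEAP3, SLC11A2 and SLC39A14, those for storage FTH1, FTL and NCOA4, the one for export SLC40A1, and those for sensing ACO1 and IREB2. U251 cells are a long-used line from a human astrocytic glioma, labelled here as wild type. Of 6 RNA-seq libraries, 3 came from cells kept with 6-shogaol for 24 h, at a dose labelled as 60 with the unit "μm" and read here as micromolar, and 3 from control cells kept without it for the same time, for which the labels name no vehicle. 6-shogaol is a pungent, thiol-reactive enone of dried ginger, and the design sets cells given the compound against cells not given it. Cells of both groups grew in DMEM with serum. The labels do not say whether replicates were grown separately, so each p-value rests on variation among libraries that could be technical in origin.

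Cells take up transferrin-bound iron through the transferrin receptor. The iron is released in endosomes, reduced and carried into the cytosol, where it is used, stored in ferritin or exported by ferroportin. Iron regulatory proteins bind a short RNA hairpin, the iron-responsive element, when cellular iron is low. Binding in the 3′ UTR protects the transferrin receptor transcript from decay, and binding in the 5′ UTR blocks translation of ferritin and ferroportin transcripts without by itself changing their amount. Ferritin genes are also known targets of oxidative stress factors, and glioma cells are known for high demand for iron.

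The hairpins are shown because their place, in the 3′ UTR of TFRC and the 5′ UTR of the ferritin and ferroportin transcripts, differs between uptake and storage or export. GENCODE 29 transcripts were searched on the transcript strand for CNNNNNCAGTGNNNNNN, with the requirement that the 5 bases before the loop pair with the 5 after it, G with T pairs allowed. Of 19684 protein-coding genes, 291 (1.48%) had a match anywhere in a transcript, coding sequence included, among them TFRC, FTH1, FTL and SLC40A1 of the 10 iron handling genes. The other 6 had none in these transcripts, which says only that these letters were not found there. The pattern follows the known form of the element, so a match in its known carriers is no test. Each sequence below is 30 bases in GRCh38, given 5′ to 3′ as DNA letters on the transcript strand, with the 6-base loop in capitals.
TFRC, chr3:196050979-196051008, minus strand, 3′ UTR: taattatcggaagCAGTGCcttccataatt
TFRC, chr3:196050575-196050604, minus strand, 3′ UTR: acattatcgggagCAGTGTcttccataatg
TFRC, chr3:196050510-196050539, minus strand, 3′ UTR: tctgtatcggagaCAGTGAtctccatatgt
TFRC, chr3:196050463-196050492, minus strand, 3′ UTR: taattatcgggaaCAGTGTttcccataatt
FTH1, chr11:61967574-61967603, minus strand, 5′ UTR: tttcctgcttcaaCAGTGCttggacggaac
FTL, chr19:48965334-48965363, plus strand, 5′ UTR: tctcttgcttcaaCAGTGTttggacggaac
SLC40A1, chr2:189580661-189580690, minus strand, 5′ UTR: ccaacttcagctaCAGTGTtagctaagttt

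The 4 matching TFRC elements lay within 546 bases of its 3′ UTR and shared 18 to 25 of 30 bases with each other. An element with a mismatch in the 5 pairs would be missed, so 4 need not be the TFRC total. The FTH1 and FTL elements were identical at 27 of 30 bases. The FTH1 and FTL elements shared 9 to 14 bases with those of TFRC. The SLC40A1 element shared 13 bases with that of FTH1, 14 with that of FTL and 13 to 16 with those of TFRC.

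The 6-shogaol libraries held 43516840 to 55225898 counts and the control libraries 52132767 to 60018999. Of 19279 genes tested with edgeR, 322 were higher with 6-shogaol (1.67%) and 329 lower (1.71%) at a Benjamini-Hochberg adjusted p under 0.05, and the median log2 fold change of all tested genes lay at 0 to 2 decimals. The glioma markers VIM, NES, CD44 and SOX2 were abundant in every library, with a lowest value of 232 CPM (CPM, counts scaled to a common library size, here by TMM). Of these, NES fell (log2 fold change -0.42, edgeR adjusted p = 0.0484), while SOX2 (-0.33, 0.0646) and CD44 (0.25, 0.12) did not pass although their groups did not overlap, and VIM (0.05, 0.915) overlapped. Among all tested genes, groups did not overlap in CPM for 14% higher with 6-shogaol and 13.9% lower. GFAP fell, at 8.39 to 9.19 CPM with 6-shogaol against 23.8 to 33.9 CPM in controls (log2 fold change -1.62, edgeR adjusted p = 0.00655), and S100B was near 0 in both groups (at most 1.35 CPM). Summed over 10 markers of myeloid, endothelial, epithelial and erythroid cells, the libraries held 153 to 182 CPM with 6-shogaol and 180 to 203 CPM in controls, with 3 to 4 of the 10 at 0 with 6-shogaol and 2 to 6 in controls. KRT8 supplied most of this, HBB had no count in any library, and PTPRC, PECAM1 and ALAS2 were at most 0.266 CPM. CD68 was at 15.6, 25.2 and 28.2 CPM with 6-shogaol against 14.2, 12.7 and 14.7 CPM in controls, and the part of these markers in the results below was not tested. On principal component 2 of the libraries, 6-shogaol replicate 1 lay at -61.8 and the others between -22.6 and 33.9.

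Of the 10 genes, 9 passed the filter on low counts, and SLC40A1 did not. TFRC rose and no other member passed the test in either direction, so 1 of 9 was called higher, against 1.67% of all tested genes, and 0 lower, against 1.71%, in edgeR. At an unadjusted p under 0.05 there were 4 higher (TFRC, FTH1, FTL and SLC39A14) and 0 lower, against 10.4% and 9.95% of all tested genes. DESeq2 called these same 4 higher and 0 lower, while limma on log2(FPKM + 1) called TFRC alone. DESeq2 called 6% of all genes it gave an adjusted p higher and 6.02% lower, and limma 3.53% higher and 2.51% lower. Groups did not overlap in CPM for TFRC, SLC39A14 and FTH1, all higher with 6-shogaol, and 14% of all tested genes had that pattern. The median log2 fold change of the 9 was 0.05, so TFRC moved within a set whose other members were mostly near 0 or had a smaller difference. In bulk RNA, fewer cells with a transcript and less of it per cell cannot be told apart.

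**Figure D1:**
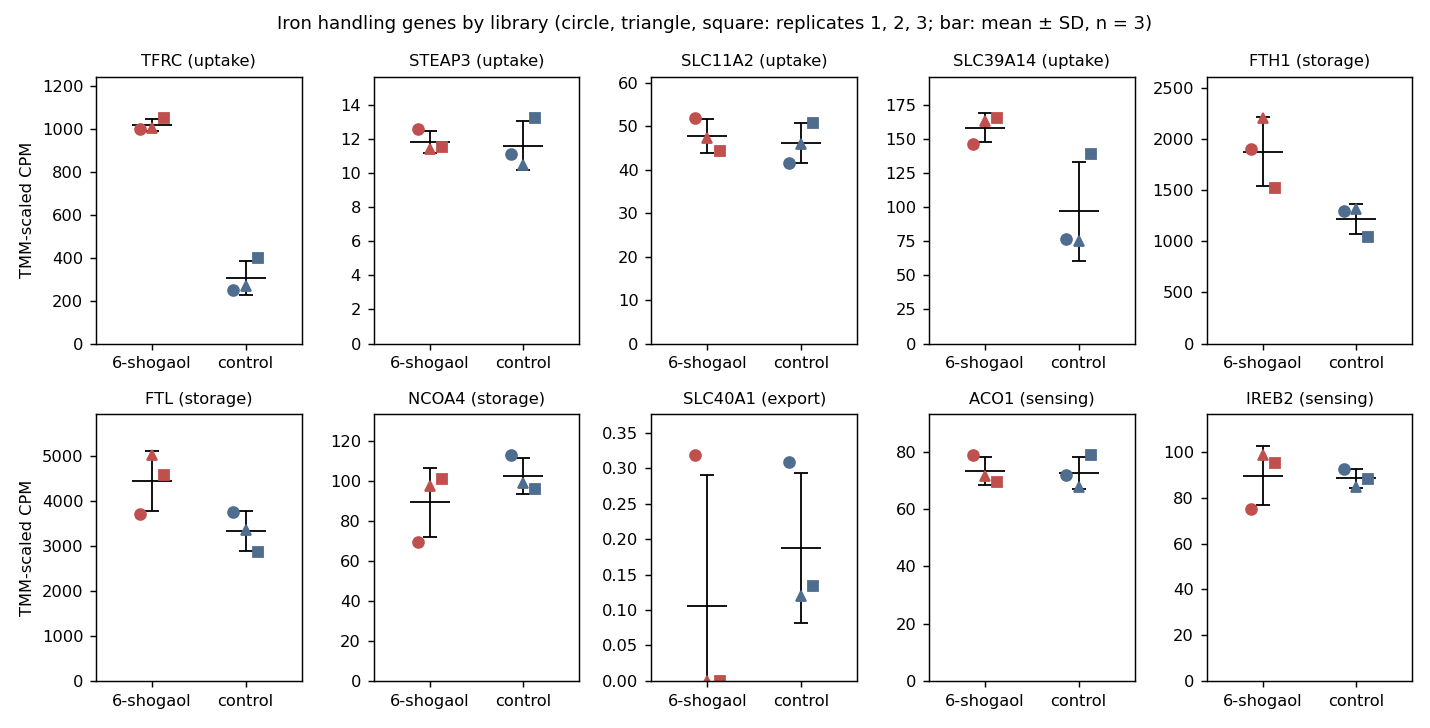
CPM of each of the 10 genes, with 6-shogaol libraries left and control libraries right; symbols mark replicates 1, 2 and 3 and bars the mean ± SD (n = 3). The 3 TFRC values with 6-shogaol sit between 999 and 1052 CPM, above all controls (250.6 to 399 CPM), and control replicate 3 is the highest control for TFRC and SLC39A14.

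TFRC encodes the transferrin receptor (ENSG00000072274, chromosome 3, 196027183 to 196082096, minus strand). It had 56407, 50372 and 45799 counts in 6-shogaol replicates 1, 2 and 3, against 12953, 15612 and 23946 in control replicates 1, 2 and 3. Scaled for library size these were 999, 1004 and 1052 CPM with 6-shogaol and 250.6, 267 and 399 CPM in controls. The treated libraries lay close together and the controls were spread, with control replicate 3 above the other controls and still far below any treated library. On the deposited FPKM scale, which also divides by transcript length, the mean was 111 ± 3.35 with 6-shogaol and 33.0 ± 9.06 in controls (SD, n = 3 each), a ratio of 3.38. The log2 fold change in CPM was 1.74 (SE 0.17, 95% interval 1.33 to 2.15, edgeR adjusted p = 0.00703). By mean FPKM over all genes of the table, TFRC ranked 231 in treated cells and 1000 in control cells.

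The TFRC call held in each of the 6 fits that left out 1 library, with adjusted p from 0.00211 to 0.0449 and log2 fold changes from 1.61 to 1.98. The highest of these came without control replicate 3. Among the 322 genes called higher, TFRC had the 12th largest log2 fold change.

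STEAP3 encodes an endosomal ferrireductase that reduces iron released from transferrin (ENSG00000115107, chromosome 2, 119223831 to 119265652). Its levels were 12.6, 11.4 and 11.6 CPM with 6-shogaol against 11.1, 10.5 and 13.3 CPM in controls, and the groups overlapped. The log2 fold change was 0.03 (95% interval -0.27 to 0.32, edgeR adjusted p = 0.933). STEAP3 shares 10.96% of its exon length with STEAP3-AS1 on the opposite strand, whose counts came to 0.563% to 4.57% of those of STEAP3, and the strand setting used in counting is not given in the sources used here.

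SLC11A2 encodes DMT1, the transporter that moves ferrous iron out of endosomes (ENSG00000110911, chromosome 12, 50979401 to 51028566). It stood at 52.0, 47.3 and 44.2 CPM with 6-shogaol and at 41.6, 46.1 and 50.7 CPM in controls. The groups overlapped almost fully, and the difference was 0.05 on the log2 scale (95% interval -0.19 to 0.29, edgeR adjusted p = 0.829). SLC11A2 is known to have transcripts with and without an iron-responsive element, which gene counts do not separate.

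SLC39A14 encodes ZIP14, a transporter of zinc, manganese and iron not bound to transferrin (ENSG00000104635, chromosome 8, 22367249 to 22434129). Its levels were 146, 163 and 165 CPM with 6-shogaol against 76.8, 75.1 and 139 CPM in controls. Every treated library was above every control, but control replicate 3 lay much nearer to the treated libraries than to the other controls. The log2 fold change was 0.71 (SE 0.23, 95% interval 0.16 to 1.26) and did not pass in edgeR (adjusted p = 0.151), while DESeq2 called it (adjusted p = 0.0184). Without control replicate 3 the value was 1.06 and edgeR called it (adjusted p = 0.016), and in the other 5 fits without 1 library it ran from 0.55 to 0.76 with no call. Control replicate 3 was the highest control library for all 4 uptake genes and for ACO1, and the lowest for FTH1, FTL and NCOA4.

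**Figure D2:**
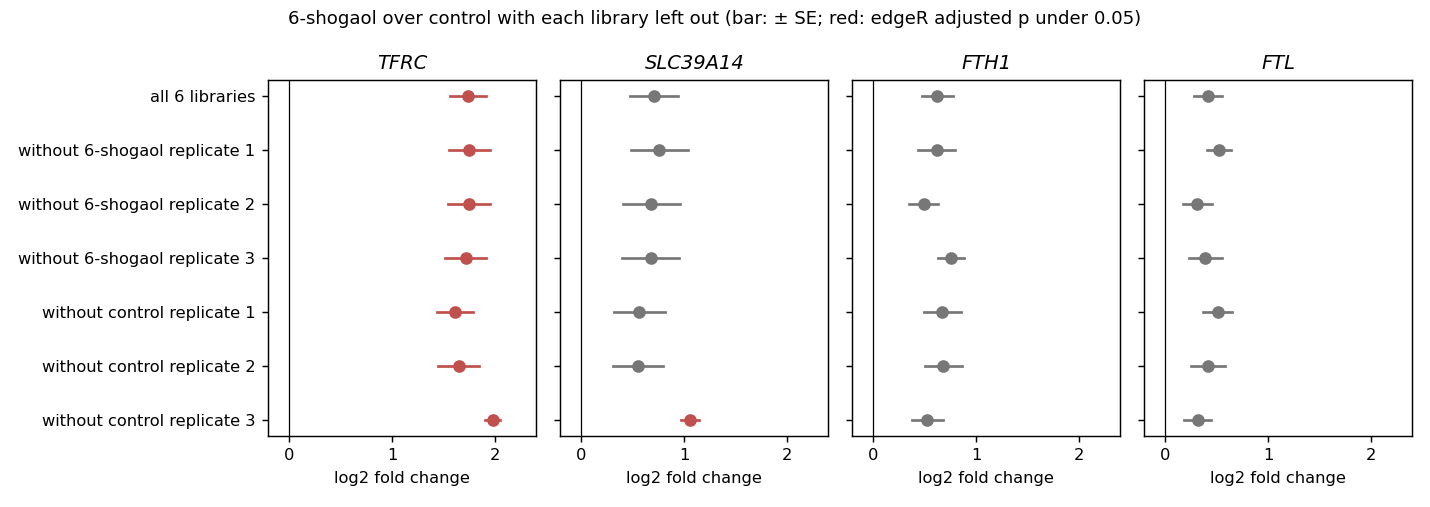
Log2 fold change of TFRC, SLC39A14, FTH1 and FTL, 6-shogaol over control, with all libraries and with each library left out in turn; points are edgeR estimates, bars ± SE, and red marks an adjusted p under 0.05. TFRC stays between 1.61 and 1.98 and is red in each fit, SLC39A14 is red only without control replicate 3 (1.06), and FTH1 and FTL are grey in each fit.

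FTH1 encodes the ferritin heavy chain, the ferroxidase subunit of the iron storage shell (ENSG00000167996, chromosome 11, 61959718 to 61967634). It had 1902, 2211 and 1527 CPM in 6-shogaol replicates 1, 2 and 3, against 1294, 1314 and 1046 CPM in control replicates 1, 2 and 3. The groups did not overlap, and the lowest library of each group was replicate 3. The log2 fold change was 0.63 (SE 0.15, 95% interval 0.28 to 0.97), which missed the threshold in edgeR (adjusted p = 0.0715) and passed in DESeq2 (adjusted p = 0.00175).

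FTL encodes the ferritin light chain, the subunit that supports mineral formation inside the shell (ENSG00000087086, chromosome 19, 48965309 to 48966879). Levels were 3719, 5018 and 4584 CPM with 6-shogaol against 3761, 3359 and 2875 CPM in controls. In CPM the groups overlapped by a small margin, since 6-shogaol replicate 1 lay just under control replicate 1, and in FPKM they did not (3711, 4833 and 4476 with 6-shogaol against 3613, 3224 and 2797 in controls). The log2 fold change was 0.41 (SE 0.14, 95% interval 0.10 to 0.73), with an adjusted p of 0.148 in edgeR and 0.0452 in DESeq2.

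Both ferritin genes have many processed pseudogenes, so reads could be split between near-identical copies. The 24 numbered FTH1 pseudogenes of the table took 4.12% to 6.31% of the family's counts with 6-shogaol and 3.60% to 5.26% in controls. The 16 numbered FTL pseudogenes took 0.0736% to 0.175% with 6-shogaol and 0.0992% to 0.155% in controls. With pseudogene counts added, the log2 fold changes were 0.63 for FTH1 (edgeR adjusted p = 0.0599) and 0.41 for FTL (0.148), again without a call. FTH1 shares 62.4% of its annotated exon length with BEST1 on the opposite strand, and BEST1 held 0.288% to 0.784% as many counts as FTH1.

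The heavy to light chain ratio, FTH1 over FTL in FPKM, was 0.222, 0.191 and 0.145 in 6-shogaol replicates 1, 2 and 3 against 0.150, 0.170 and 0.158 in control replicates 1, 2 and 3. The treated libraries spread over and around the controls, and the mean log2 ratio differed by 0.21 (p = 0.4 by a two-sided exact permutation test, which cannot give less than 0.1 here). TFRC over the sum of both ferritins, also in FPKM, was 0.0245, 0.0188 and 0.0224 with 6-shogaol and 0.00647, 0.00759 and 0.0134 in controls. Each treated library was above each control, by 1.32 on the log2 scale on average (two-sided exact permutation test, p = 0.1, the smallest this design can give, so that it could not pass 0.05). This ratio holds TFRC in its numerator and so is not separate from the TFRC result.

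NCOA4 encodes the cargo receptor that takes ferritin to autophagosomes for iron release (ENSG00000266412, chromosome 10, 46005088 to 46030714). It had 69.7, 97.5 and 101 CPM with 6-shogaol against 113, 98.9 and 95.8 CPM in controls. Treated replicate 1 was the lowest library and the other treated values lay among the controls. The log2 fold change was -0.20 (95% interval -0.55 to 0.15, edgeR adjusted p = 0.52), and without 6-shogaol replicate 1 it was -0.05.

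SLC40A1 encodes ferroportin, the known cellular iron exporter (ENSG00000138449, chromosome 2, 189560590 to 189583758). It had 18, 0 and 0 counts in 6-shogaol replicates 1, 2 and 3 against 16, 7 and 8 counts in control replicates 1, 2 and 3. The transcript was thus detected in every control and in 1 treated library, at no more than 0.319 CPM. A count of 0 allows up to 0.0598 CPM in 6-shogaol replicate 2 and 0.0689 CPM in replicate 3 (3 counts, covering counting error only). It was too low for the test; without a filter its log2 fold change had an interval from -4.46 to 2.90 (edgeR adjusted p = 0.864), so no difference was detectable at this depth.

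ACO1 and IREB2 encode the iron regulatory proteins IRP1 and IRP2, which bind the hairpins above; IRP1 serves as cytosolic aconitase when it carries an iron-sulfur cluster, and IRP2 is degraded when iron is ample. ACO1 (ENSG00000122729, chromosome 9, 32384603 to 32450836) had 78.9, 71.4 and 69.4 CPM with 6-shogaol against 71.9, 67.6 and 78.7 CPM in controls. Its log2 fold change was 0.01 (95% interval -0.19 to 0.22, edgeR adjusted p = 0.964), with groups that overlapped. IREB2 (ENSG00000136381, chromosome 15, 78437431 to 78498209) had 74.9, 98.6 and 95.2 CPM with 6-shogaol against 92.7, 84.7 and 88.1 CPM in controls. Its log2 fold change was 0.02 (95% interval -0.25 to 0.28, edgeR adjusted p = 0.954), and treated values lay on both sides of the controls. Neither transcript thus differed beyond the spread, and both intervals exclude a change as large as that of TFRC. Protein and RNA-binding activity were not measured.

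**Figure D3:**
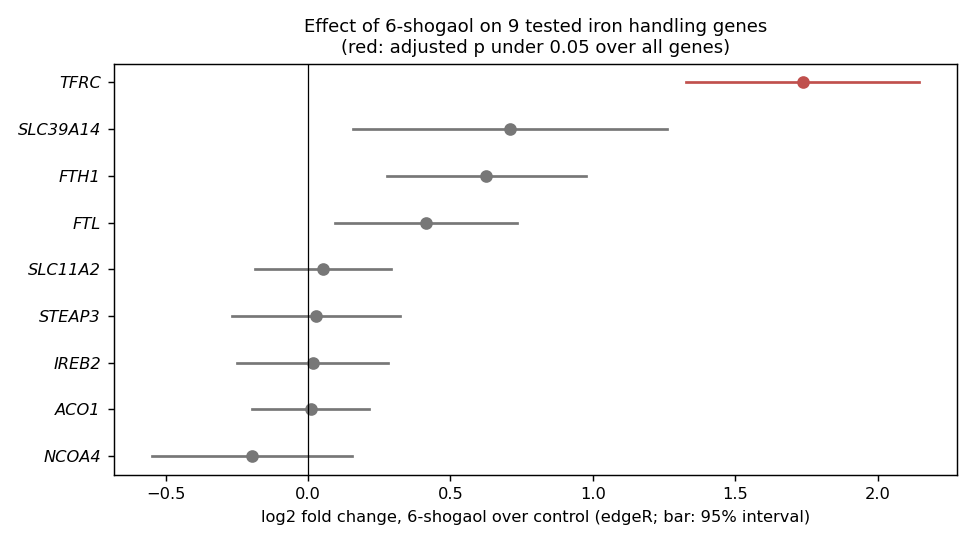
Log2 fold change of the 9 tested genes, 6-shogaol over control, with 95% intervals from edgeR; red marks an adjusted p under 0.05 over all genes. TFRC (1.74) is the one red point, SLC39A14, FTH1 and FTL lie from 0.41 to 0.71, and the other 5 from -0.20 to 0.05.

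Per length, the ferritin transcripts FTL and FTH1 were the most abundant of the 10 in both groups. Mean FPKM in treated cells was 4340 ± 573 for FTL, 799 ± 140 for FTH1, 111 ± 3.35 for TFRC, 19.4 ± 0.998 for SLC39A14, 18.7 ± 3.36 for NCOA4, 8.27 ± 0.693 for ACO1, 7.05 ± 0.897 for IREB2, 4.11 ± 0.398 for SLC11A2 and 2.21 ± 0.161 for STEAP3 (SD, n = 3). In control cells it was 3211 ± 408 for FTL, 510 ± 58.9 for FTH1, 33.0 ± 9.06 for TFRC, 21.1 ± 1.80 for NCOA4, 11.7 ± 4.48 for SLC39A14, 8.09 ± 0.686 for ACO1, 6.88 ± 0.317 for IREB2, 3.91 ± 0.413 for SLC11A2 and 2.14 ± 0.282 for STEAP3. The order was the same in both groups except for SLC39A14 and NCOA4, whose libraries overlapped with 6-shogaol (18.3 to 20.3 FPKM and 14.8 to 21.1 FPKM) and did not in controls (9.04 to 16.9 FPKM and 19.9 to 23.2 FPKM). All other neighbours in the order were separated in every library of a group, ACO1 and IREB2 by the smallest margin. SLC40A1 was last, listed at 0.0651, 0.0001 and 0.0001 FPKM with 6-shogaol and at 0.0577, 0.0236 and 0.0238 FPKM in controls, where 0.0001 stands for a count of 0. FTL ranked 9 among all genes in treated cells and 12 in control cells, and FTH1 ranked 28 and 41 in the same groups.

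**Figure D4:**
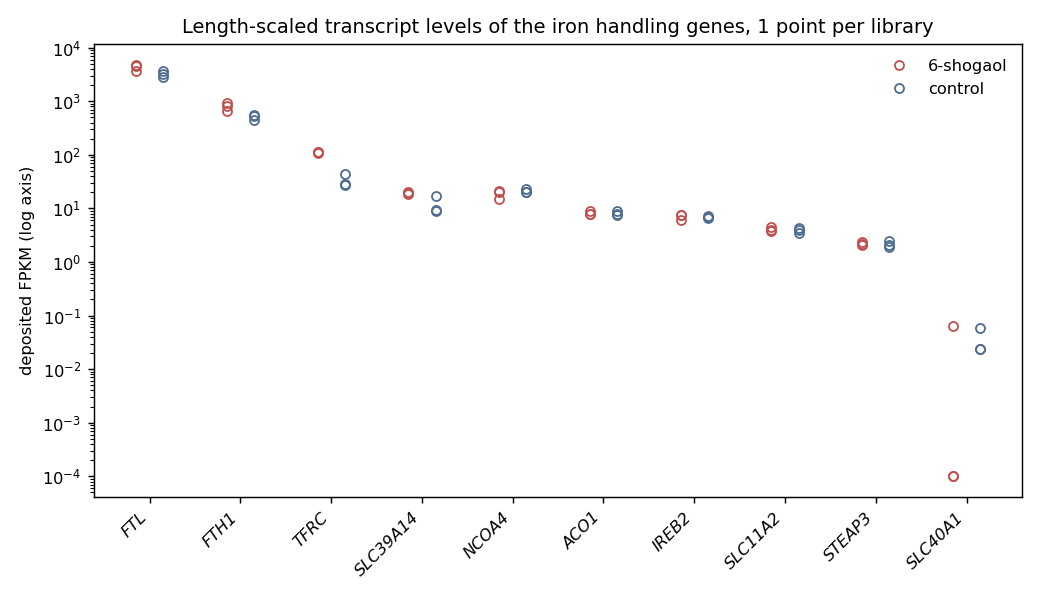
Deposited FPKM of the 10 genes on a log axis, 1 point per library, with 6-shogaol left of control at each gene and genes ordered by mean in treated cells. FTL and FTH1 stand above 400 FPKM in every library, TFRC lies at 108 to 115 FPKM with 6-shogaol against 26.9 to 43.4 FPKM in controls, and SLC40A1 is at or below 0.0651 FPKM, the points at 0.0001 standing for a count of 0.

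The genes most like TFRC were those with the highest Pearson correlation of log2 CPM with it over the 6 libraries, among 8236 other genes averaging 20 CPM or more. They were E2F1, a factor of cell cycle entry (r = 0.997), FLCN, folliculin of nutrient sensing (0.995), RBBP5, a subunit of histone methyltransferase complexes (0.995), ABHD2, a lipase (0.994), and PDIA6, a disulfide isomerase of the endoplasmic reticulum (0.993). These values describe likeness only, and with libraries in 2 groups they are set mostly by the difference between the groups. E2F1 had 103, 101 and 103 CPM with 6-shogaol against 60.4, 62.1 and 69.1 CPM in controls, with control replicate 3 the highest control. These genes were picked for likeness to TFRC in these same libraries. The order of their controls and their direction thus follow largely from that choice and are not separate evidence. E2F1 and FLCN rose (log2 fold changes 0.68 and 0.34, edgeR adjusted p = 0.00828 and 0.049), and the other 3 did not pass, with values from 0.23 to 0.30. None moved as far as TFRC.

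Outside these 10 genes, 82 further genes of iron and heme metabolism in 9 lists were examined, of which 73 could be tested. In edgeR 3 rose and 1 fell, against 1.67% and 1.71% of all genes, and the median log2 fold change was 0.07. DESeq2 called 9 higher and 2 lower, against 6% and 6.02% of all genes, and limma on log2(FPKM + 1) 4 higher and 1 lower, against 3.53% and 2.51%. Fewer than 73 of these genes had an adjusted p in DESeq2, and fewer still in limma. At an unadjusted p under 0.05 in edgeR 16 of the 73 were higher and 4 lower, and the counts at that threshold for each list below stand against 10.4% higher and 9.95% lower of all genes. EPAS1, which encodes the hypoxia factor HIF-2α and carries a reported iron-responsive element, had 56.3, 61.7 and 60.0 CPM with 6-shogaol against 29.7, 30.2 and 30.9 CPM in controls. All treated libraries were near 60 and all controls near 30 CPM, and the difference of 0.97 on the log2 scale (SE 0.07, edgeR adjusted p = 0.00358) was called in each fit without 1 library. ALAS1, the rate-limiting enzyme of heme synthesis outside erythroid cells, had 76.3, 76.4 and 87.5 CPM with 6-shogaol against 47.1, 48.5 and 50.03 CPM in controls. Its groups stood well apart, and it rose by 0.72 on the log2 scale (edgeR adjusted p = 0.00896), with adjusted p of 0.0502 and 0.055 without control replicates 1 and 2.

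HSPA9, the mitochondrial chaperone that serves iron-sulfur cluster assembly among other tasks, had 516, 447 and 494 CPM with 6-shogaol against 364, 393 and 372 CPM in controls. HMOX2, the constitutive heme oxygenase, had 18.1, 17.1 and 17.6 CPM with 6-shogaol against 24.0, 23.4 and 23.4 CPM in controls. Neither pair of groups overlapped, a pattern that 14% of all tested genes had with 6-shogaol higher and 13.9% with it lower. Both calls were near the threshold, with log2 fold changes of 0.37 and -0.43 (edgeR adjusted p = 0.0472 and 0.0413). HSPA9 lost its call in each of the 6 fits without 1 library and HMOX2 in 5 of them, all but that without 6-shogaol replicate 1. HMOX2 shares 6.01% of its exon length with NMRAL1 on the opposite strand.

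Among genes of the transferrin cycle, reductases and other iron carriers, 0 of 9 tested passed in edgeR (3 higher and 1 lower at an unadjusted p under 0.05). DESeq2 called TFR2 higher and CP lower there, both named after their values were seen, and limma 0 of the 4 it tested. The ferrireductase gene CYBRD1 had a log2 fold change of 0.02 and SLC39A8, the ZIP8 transporter related to ZIP14, of 0.26 (edgeR adjusted p = 0.948 and 0.221). Of systemic iron signals 0 of 4 passed in edgeR (1 higher and 1 lower at an unadjusted p under 0.05), and 0 of the 3 with a DESeq2 adjusted p and 0 of the 2 in the limma fit. ERFE, known as an erythroid hormone that lowers hepcidin, had a value of 0.40 and BMP6, known for inducing hepcidin, of 0.05 (edgeR adjusted p = 0.209 and 0.885).

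Iron chaperones and controllers of the iron regulatory proteins gave 0 calls among 6 in edgeR, DESeq2 and limma, and 0 at an unadjusted p under 0.05. The iron chaperone gene PCBP2 had a log2 fold change of -0.01 and HERC2, a ubiquitin ligase, of -0.03. Of 8 heme breakdown and transport genes, HMOX2 alone passed in edgeR (1 higher and 2 lower at an unadjusted p under 0.05). HMOX1, the inducible heme oxygenase, had 54.2, 51.7 and 50.6 CPM with 6-shogaol against 40.4, 43.5 and 37.3 CPM in controls, and its value of 0.37 missed the threshold in edgeR (adjusted p = 0.063), while DESeq2 and limma called it higher. BLVRA, which encodes biliverdin reductase, stood at -0.01.

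Of 8 heme synthesis genes ALAS1 alone passed in edgeR (2 higher and 0 lower at an unadjusted p under 0.05). UROD, a later enzyme of the pathway, had a value of 0.07. In mitochondrial iron and iron-sulfur cluster assembly 1 of 19 rose, HSPA9, and 6 were higher (10.4% of all genes) with 0 lower (9.95%) at an unadjusted p under 0.05. SLC25A37, which encodes the mitochondrial iron importer mitoferrin-1, had 90.9, 107 and 92.8 CPM with 6-shogaol against 67.4, 85.2 and 69.7 CPM in controls, a log2 fold change of 0.39 that did not pass (edgeR adjusted p = 0.117) and was called by DESeq2, as was NFS1, a gene named after its values were seen. Cytosolic iron-sulfur assembly gave 0 calls among 8 in edgeR, DESeq2 and limma, and 0 at an unadjusted p under 0.05, with 0.06 for CIAO1 and -0.08 for MMS19, both of the targeting complex.

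Of the other 4 transcripts with a reported iron-responsive element EPAS1 alone passed in edgeR (1 higher and 0 lower at an unadjusted p under 0.05). CDC42BPA, which encodes a kinase, had a log2 fold change of 0.16 (edgeR adjusted p = 0.351). Among 7 factors known to act on the TFRC gene or its transcript 0 passed in edgeR, with 2 higher and 0 lower at an unadjusted p under 0.05. DESeq2 called MYC and ZFP36 higher, both named after their values were seen, and limma 0. The hypoxia factor gene HIF1A had a value of 0.14 and RC3H2, which encodes an RNA-binding protein of transcript decay, of 0.13 (edgeR adjusted p = 0.307 and 0.489).

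**Figure D5:**
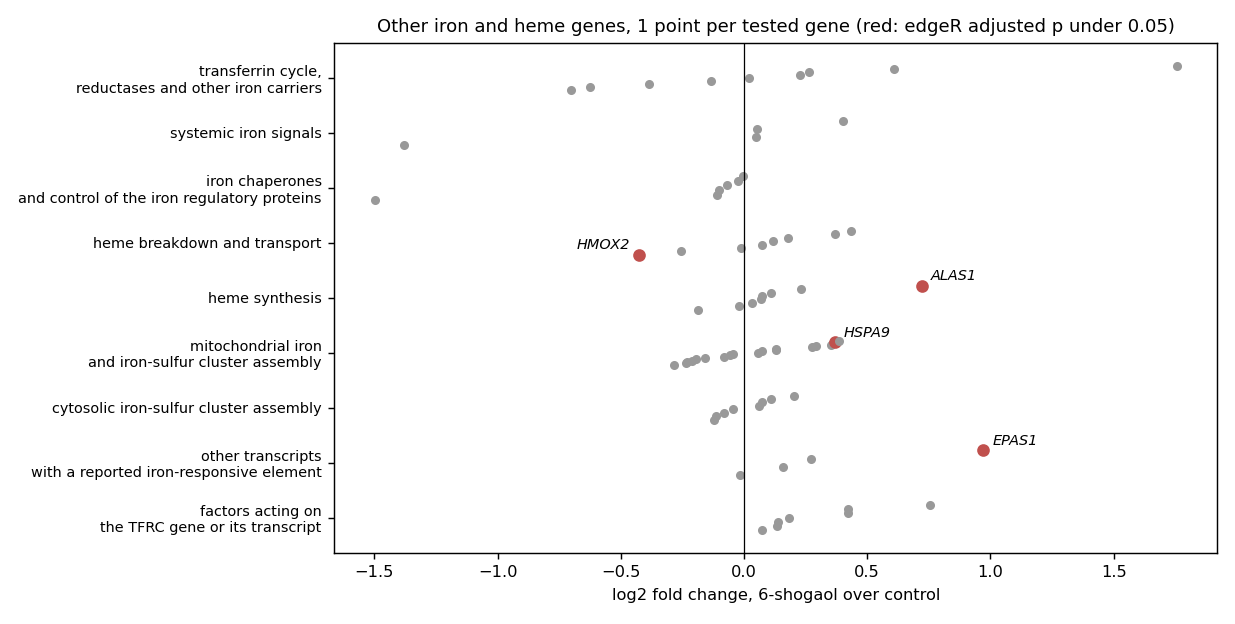
Log2 fold change, 6-shogaol over control, of the 73 tested genes in 9 lists of iron and heme metabolism, 1 point per gene with lists down the page; red marks an edgeR adjusted p under 0.05. EPAS1 (0.97), ALAS1 (0.72) and HSPA9 (0.37) are red on the right, HMOX2 (-0.43) is red on the left, and the other genes are grey. The grey points run from -1.50 (BOLA2) to 1.76 (TFR2).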

How the data were processed

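Per the labels, the SMARTER mRNA-Seq kit was used on total RNA from Trizol. The authors deposited raw counts per gene for 6 libraries of U251 cells, and FPKM values per the file headers, with a copy of the counts that differed in 0 values. Aligner, counter and strand setting are not given in the sources used here. The submitters' processing notes name the mouse builds GRCm38 and mm10, yet all 60612 identifiers are human. Of these, 58394 are in GENCODE 29 (GRCh38), 99.9% of them overlapping the same gene there, so coordinates are printed as deposited. The tables held 0 columns of other samples.

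The 10 genes, the lists of other iron genes and the tests were chosen with earlier results of these data known. Groups came from the sample titles. Counts were filtered with filterByExpr, scaled by TMM and tested in R 4.3.3 with edgeR 4.0.16 (glmQLFit, glmQLFTest), with Benjamini-Hochberg adjustment over all 19279 genes at 0.05. Standard errors were obtained by dividing the size of each log2 fold change by the root of its F value. CPM is TMM-scaled. Alternatives tried were DESeq2 1.42.0, RLE scaling, upper-quartile scaling, other filters, a replicate block, each library left out, and limma 3.58.1 on FPKM with pseudocounts of 1 or 0.1 for genes at 1 FPKM in 3 libraries. The main edgeR fit, DESeq2 and limma with a pseudocount of 1 were tested on simulated counts, limma on their CPM in place of FPKM. The other alternatives were not tested on simulated counts.

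The rule named all 10 genes, each called gene of the other lists, the 2 most abundant tested genes of each list, and the 5 genes most like TFRC. One gene that the rule names is not reported here. Within groups, chi-square over degrees of freedom ran from 31.3 to 63.7 between libraries, so none is a copy of another. Totals of 43516840 to 60018999 counts put the limit of a count of 0 at 0.05 to 0.0689 CPM (3 counts, covering counting error only).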

Additional observations from a re-analysis of the deposited data

How the results depend on the processing

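The TFRC value ran from 1.61 to 1.98 over the alternatives and was called in each except the fit with a replicate block (1.77, adjusted p = 0.0541), where the members called higher numbered 0, all genes 3 higher and 0 lower, and other iron genes 0 in either direction. Replicate numbers carry no stated pairing. Over all genes, deviations of same-numbered libraries correlated at -0.03, 0.06 and -0.04, and not every library correlated best with its own number. Being over all genes, these correlations cannot show whether single genes varied together by number. With the block the SE was smaller for TFRC (0.14 against 0.17), SLC39A14 (0.18 against 0.23) and FTH1 (0.076 against 0.15). It was larger for FTL, NCOA4, STEAP3, SLC11A2, ACO1 and IREB2. Replicate 3 was the highest library of both groups for TFRC and SLC39A14, and the lowest of both for FTH1. DESeq2 called 4 members higher (9 other iron genes higher and 2 lower; 932 genes higher and 934 lower in all). With no filter 183 genes were higher and 195 lower, and for limma on FPKM with no filter 159 and 118; both left 0 other iron genes lower. Leaving out 1 library gave 44 to 480 genes higher and 54 to 532 lower, 1 to 2 members higher and 0 lower, and 1 to 3 other iron genes higher and 0 to 2 lower. Without 6-shogaol replicate 1 there were 480 higher and 532 lower, and each of the other 5 libraries left out gave 44 to 81 higher and 54 to 96 lower. HSPA9 lost its call with upper-quartile scaling (adjusted p = 0.0521), no filter (0.075), the block (0.176) and limma with no filter (0.104), and HMOX2 with no filter (0.068), the block (0.156) and limma with no filter (0.0632). EPAS1 and ALAS1 lost theirs with the block (0.0541 and 0.081). Values near 0 changed sign: ACO1 was -0.00080 with upper-quartile scaling, and without 1 library ACO1 ran from -0.046 to 0.071, STEAP3 from -0.041 to 0.13, SLC11A2 from -0.015 to 0.13 and IREB2 from -0.060 to 0.13. The log2 difference of the FTH1 to FTL ratio ran from 0.07 (without 6-shogaol replicate 1) to 0.38, and that of TFRC to ferritin from 1.11 to 1.64. The cause of these differences was not tested. The median of all genes lay from -0.01 (upper-quartile scaling) to 0.02 (limma on FPKM). Depth limits SLC40A1 alone among the 10 genes.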
